A study of Mus musculus with 13 samples.

Results

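Splicing factor genes of the SRSF, hnRNP and SF3 families were described in mouse splenic B cells with and without the RNase Regnase-1, before and after stimulation of the B cell receptor (BCR). Members were the genes whose symbol starts with Srsf, Hnrnp, Sf3a or Sf3b in current mouse nomenclature, and 37 of the 23337 gene symbols in the count tables met this rule. They comprised 11 SRSF genes, 18 hnRNP genes and 8 SF3 genes. Hnrpdl and Hnrpll, hnRNP genes listed under older symbols, fell outside the rule and were counted with the other splicing regulators.

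SR proteins bind exonic enhancers through RNA recognition domains and recruit the spliceosome through domains rich in arginine and serine. The hnRNP proteins coat nascent transcripts, often oppose SR proteins at nearby sites, and also act in export, stability and translation of mRNA. SF3A and SF3B are protein complexes of the U2 small nuclear ribonucleoprotein (snRNP), which holds the branch point adenosine during spliceosome assembly. In B cells hnRNP and SR proteins are known to take part in the switch between membrane and secreted immunoglobulin transcripts and in isoform choice of surface receptors.

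The study measured RNA by sequencing in 13 libraries of splenic B cells, purified by bead depletion of CD43-bearing cells. Deficient cells came from mice with floxed alleles of Zc3h12a, the gene of Regnase-1 (Regnase-1 f/f), and control cells from mice with intact alleles (Regnase-1 +/+). Both genotypes carried hCD20TamCre, a tamoxifen-activated Cre driven by the human CD20 promoter, so that the recombinase itself is shared by all groups. There were 3 deficient libraries stimulated for 4 h with anti-IgM F(ab')2, 3 control libraries stimulated in the same way, 3 deficient libraries left untreated and 4 control libraries left untreated. Age, tamoxifen schedule and the time that untreated cells spent in culture are not given in the sources used here. The labels number the libraries but do not say that each came from a separate mouse, so p-values measure the spread between these libraries, part of which may be technical.

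Total counts ran from 21407724 to 33244755 a library. Levels are given as CPM, counts scaled to the library total with TMM factors, on which 3 counts equal 0.0902 to 0.140. Zc3h12a had 92.6 to 113 CPM in deficient stimulated and 147 to 157 CPM in control stimulated libraries (log2 difference -0.58, edgeR adjusted p = 0.000784), and 89.2 to 111 CPM in deficient unstimulated against 121 to 131 CPM in control unstimulated libraries (log2 difference -0.32, adjusted p = 0.106). Reads from any exons left in place by the recombination would still count toward this gene. All 10 B cell markers were present at 79.1 CPM or more in every library. Their summed level was 3531 to 3880 CPM in deficient stimulated, 3476 to 3651 CPM in control stimulated, 6061 to 7181 CPM in deficient unstimulated and 6292 to 7060 CPM in control unstimulated libraries. Both libraries of deficient number 1 had the highest erythroid and neutrophil marker sums of their group. Their 5 detected erythroid genes of 10 listed summed to 1223 CPM stimulated and 1345 CPM unstimulated, where control libraries reached at most 503.5 CPM stimulated and 779.7 CPM unstimulated. Their 8 neutrophil genes of 9 listed summed to 291 CPM stimulated and 421 CPM unstimulated, where control libraries reached at most 155 CPM stimulated and 394.7 CPM unstimulated, so that the unstimulated sum was close to that of a control library. By Xist and Y-linked transcripts deficient number 1 read as female and the other deficient numbers as male, and control number 1 as male and the other control numbers as female. Low levels of the opposite kind were seen in deficient unstimulated library 2 (Xist at 10.1 CPM), control unstimulated library 2 and control stimulated library 3 (Y-linked genes at 4.75 and 3.71 CPM). Sex was thus not balanced between the genotypes and is partly confounded with genotype in the comparisons below.

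Most of these splicing factors were higher after 4 h of stimulation in both genotypes. How long untreated cells spent in culture is not given, so an effect of the stimulus cannot be told apart from one of culture. After stimulation 30 of the 36 members tested were higher in deficient cells, where 28.3% of all 13574 genes tested were, and 30 were higher in control cells, where 28.5% of all genes were (edgeR quasi-likelihood test, Benjamini-Hochberg adjusted p under 0.05). Lower were 4 members in deficient cells against a background of 29.6% and 4 in control cells against a background of 31.8%. In either direction 57.9% of all genes were called in deficient cells and 60.3% in control cells. The same 30 members were higher in both genotypes, and 3 members were lower in both. The median log2 change over members was 0.51 in deficient cells and 0.53 in control cells, whereas over all genes it was -0.11 in deficient cells and -0.13 in control cells. Hnrnpul1 and Hnrnpul2 were called lower under every alternative tried, whereas Hnrnph3, Hnrnpl and Sf3b1 were not called lower by DESeq2. Without both libraries of deficient number 1, 30 members were higher and 3 lower in deficient cells.

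Summed markers of other cells also differed between the states. The 6 stromal and endothelial markers summed to 54.3 to 59.3 CPM in deficient stimulated against 229 to 293 CPM in deficient unstimulated libraries, and to 33 to 46.5 CPM in control stimulated against 206 to 223 CPM in control unstimulated libraries. The 4 plasma cell markers found of 5 listed summed to 2066 to 2742 CPM in deficient stimulated against 497 to 651 CPM in deficient unstimulated libraries, and to 2920 to 3288 CPM in control stimulated against 589 to 696 CPM in control unstimulated libraries. Most of that sum was Irf4, also a BCR response gene of B cells, which averaged 2361 CPM in deficient stimulated against 455 CPM in deficient unstimulated libraries, and 3024 CPM in control stimulated against 497 CPM in control unstimulated libraries. The 9 T cell markers summed to 88.7 to 103 CPM in deficient stimulated against 38.9 to 52.1 CPM in deficient unstimulated libraries, and to 68.7 to 96.8 CPM in control stimulated against 27.0 to 70.7 CPM in control unstimulated libraries. The sums of the other 6 lists of non-B cells overlapped between the states in both genotypes. The part of these in the splicing factor values was not tested. Levels here are shares of the counted reads after scaling, so that fewer cells of a type and less RNA per cell cannot be told apart, and a change of total RNA per cell was not measured.

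**Figure D1:**
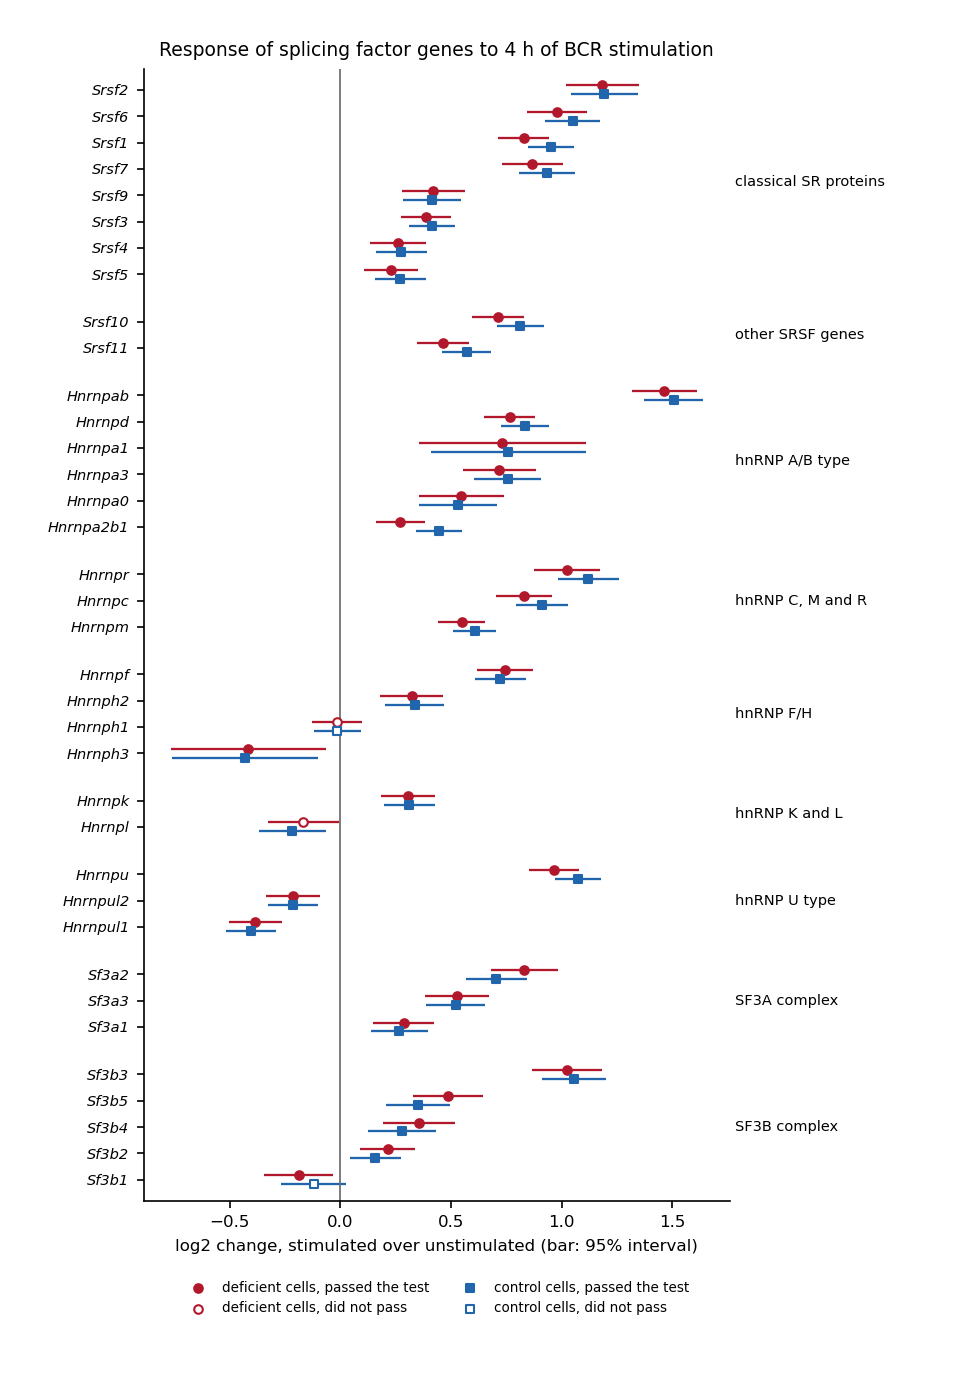
Log2 change after 4 h of BCR stimulation for the 36 members tested, ordered by role, with 95% intervals as bars, in deficient cells (circles) and control cells (squares). Filled symbols passed the test at an adjusted p under 0.05. All SRSF genes tested lie right of 0, while Hnrnpul1, Hnrnpul2, Hnrnpl, Hnrnph3 and Sf3b1 lie left of it in both genotypes. Hnrnph1 lies just left of 0 in both, with intervals that cross it.

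Summed over the tested members, splicing factor RNA made up 15670 ± 439 CPM in deficient stimulated libraries against 10810 ± 462 CPM in deficient unstimulated libraries (SD, n = 3 each). In control cells the sum was 16100 ± 342 CPM stimulated (SD, n = 3) and 10790 ± 339 CPM unstimulated (SD, n = 4). The hnRNP genes held the largest share, with 9326 ± 173 CPM in deficient stimulated, 9547 ± 244 CPM in control stimulated, 6437 ± 210 CPM in deficient unstimulated and 6372 ± 206 CPM in control unstimulated libraries. The stimulated and unstimulated ranges did not overlap for any of the 3 families in either genotype. Member by member, stimulated and unstimulated libraries did not overlap for 33 members in deficient cells, against 62% of all genes, and for 34 members in control cells, against 63.5% of all genes. Between same-numbered libraries, 30 members were higher after stimulation in each of the 6 pairs, 5 were lower in each, and Hnrnph1 varied in direction. The share of all genes that kept the same direction in every pair was not computed, so these counts have no background beside them.

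Promoter windows of 300 bases, from 250 before to 50 after a transcription start, were available for 34 of the 37 members (RefSeq, build GRCm38.p6). Where a gene had several windows, only the first listed was used. This applied to Hnrnph1 (5 windows), Hnrnpf (4), Srsf4 (3), and Hnrnpa2b1, Hnrnpr, Sf3b2 and Srsf11 (2 each). The windows shown are those of 5 genes that rose by different amounts, chosen for the motifs they hold, and of Hnrnpul1, which fell. Capitals mark CCGGAAG (an ETS factor motif), CACGTG (the E-box bound by MYC family proteins) and CCAAT (the CCAAT box), each on either strand. All of these genes lie on the minus strand, and sequences read along the gene, 5′ to 3′.
Positions are chr11:51606832-51607131 for Hnrnpab, chr11:116853045-116853344 for Srsf2, chr8:110846754-110847053 for Sf3b3, chr17:80207256-80207555 for Srsf7, chr5:99978889-99979188 for Hnrnpd and chr7:25754710-25755009 for Hnrnpul1.
Hnrnpab: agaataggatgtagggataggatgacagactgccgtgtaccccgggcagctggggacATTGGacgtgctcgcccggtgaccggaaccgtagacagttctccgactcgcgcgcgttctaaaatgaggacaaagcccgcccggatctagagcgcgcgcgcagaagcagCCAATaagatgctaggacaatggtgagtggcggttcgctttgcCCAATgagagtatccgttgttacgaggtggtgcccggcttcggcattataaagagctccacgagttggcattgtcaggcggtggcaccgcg
Srsf2: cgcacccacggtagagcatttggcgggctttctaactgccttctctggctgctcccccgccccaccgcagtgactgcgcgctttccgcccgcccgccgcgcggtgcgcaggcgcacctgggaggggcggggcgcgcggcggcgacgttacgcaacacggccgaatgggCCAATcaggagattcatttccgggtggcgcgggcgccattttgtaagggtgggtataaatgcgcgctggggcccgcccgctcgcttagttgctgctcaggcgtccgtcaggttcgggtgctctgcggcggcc
Sf3b3: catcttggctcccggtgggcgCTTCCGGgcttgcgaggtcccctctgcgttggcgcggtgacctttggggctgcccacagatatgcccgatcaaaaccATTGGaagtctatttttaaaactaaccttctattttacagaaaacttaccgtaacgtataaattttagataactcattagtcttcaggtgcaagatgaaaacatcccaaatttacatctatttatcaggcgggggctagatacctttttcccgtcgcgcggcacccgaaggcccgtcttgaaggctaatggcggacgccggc
Srsf7: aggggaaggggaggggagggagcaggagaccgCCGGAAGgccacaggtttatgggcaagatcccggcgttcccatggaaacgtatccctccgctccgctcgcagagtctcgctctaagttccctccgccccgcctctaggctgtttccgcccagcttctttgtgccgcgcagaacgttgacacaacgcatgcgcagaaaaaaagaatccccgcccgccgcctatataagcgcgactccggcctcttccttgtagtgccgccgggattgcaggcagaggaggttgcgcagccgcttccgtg
Hnrnpd: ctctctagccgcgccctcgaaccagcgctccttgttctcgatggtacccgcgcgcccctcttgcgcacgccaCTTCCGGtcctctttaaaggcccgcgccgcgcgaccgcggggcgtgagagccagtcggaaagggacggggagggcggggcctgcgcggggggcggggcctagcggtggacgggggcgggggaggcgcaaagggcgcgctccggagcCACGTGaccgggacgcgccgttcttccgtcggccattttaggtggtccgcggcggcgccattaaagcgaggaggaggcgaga
Hnrnpul1: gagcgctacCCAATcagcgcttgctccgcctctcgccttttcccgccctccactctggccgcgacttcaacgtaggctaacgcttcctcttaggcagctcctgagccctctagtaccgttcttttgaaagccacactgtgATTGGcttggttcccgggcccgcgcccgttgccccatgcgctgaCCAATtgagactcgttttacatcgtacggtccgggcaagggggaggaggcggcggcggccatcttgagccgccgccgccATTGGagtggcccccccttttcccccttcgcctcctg

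The CCGGAAG letters occurred on either strand in the windows of 11 of the 34 members (32.4%), against 17.3% of the 9614 tested genes that have a window. It lay 178 bases before the start of Hnrnpd, 218 before that of Srsf7 and 229 before that of Sf3b3. The 11 genes were Srsf4, Srsf5, Srsf7, Srsf11, Hnrnpd, Hnrnpf, Sf3a1, Sf3a2, Sf3a3, Sf3b2 and Sf3b3. Among them Srsf4, Srsf11, Hnrnpf and Sf3b2 had several windows, of which only the first was searched. All 11 rose, as did 28 of the 34 members with a window. No motif letters contain those of another. The CCAAT letters were in 18 windows (52.9%, against 39% of tested genes), in genes that rose, such as Hnrnpab and Srsf2, as in genes that fell, such as Hnrnpul1. The Hnrnpab window has CCAAT 193, 84 and 41 bases before the start, and the Hnrnpul1 window 241, 110 and 66 bases before it and 14 after it. CACGTG was found in 4 windows (11.8%, against 10.2% of tested genes), those of Hnrnpa3, Hnrnpd, Hnrnph2 and Hnrnpm, in Hnrnpd 32 bases before the start. GGGCGG, the GC box, was in 25 windows (73.5%, against 62.4% of tested genes) and TATAAA, the TATA box, in 5 (14.7%, against 7.59%). Longer motifs were rarer, with the NRF1 motif in the window of Srsf7 (2.94% of windows, against 5.32% of tested genes), the palindromic BANP motif in that of Srsf10 (2.94%, against 0.978%) and the cyclic AMP response element in 0 (against 3.17%). These shares are a description of letters in a fixed window, without a test, and say nothing of whether a factor bound there.

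All 8 classical SR protein genes rose in both genotypes, by 0.23 to 1.18 on the log2 scale in deficient cells and by 0.27 to 1.19 in control cells. Srsf2 (SC35), a regulator of exon inclusion found in nuclear speckles, rose most. It had 569, 618 and 660 CPM in deficient stimulated libraries against 246, 292 and 275 CPM in deficient unstimulated ones, and 644, 673 and 621 CPM in control stimulated against 286, 304, 277 and 262 CPM in control unstimulated libraries. Every stimulated library thus lay above every unstimulated one, with log2 changes of 1.18 ± 0.08 (SE, adjusted p = 2.26e-09) in deficient and 1.19 ± 0.07 (adjusted p = 5.95e-10) in control cells. The annotated exons of Srsf2 overlap those of Mettl23 and Mfsd11 on the opposite strand, so its level is uncertain where the counting ignored strand.

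Srsf6, another enhancer-binding SR protein, had 507, 559 and 567 CPM in deficient stimulated libraries against 256, 294 and 279 CPM in deficient unstimulated ones. In control cells it had 566, 563 and 559 CPM stimulated and 276, 279, 275 and 257 CPM unstimulated. The groups were far apart relative to their spread, with log2 changes of 0.98 in deficient and 1.05 in control cells. Srsf1 (ASF/SF2), the founding member of the family and a factor of both constitutive and alternative splicing, rose by 0.83 in deficient and 0.95 in control cells, and Srsf7, which also links splicing to mRNA export, by 0.87 and 0.94 on the log2 scale. For these 3 genes the adjusted p of the edgeR test was at most 1.004e-08 in each genotype.

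The remaining classical members moved less. Srsf9 rose by 0.42 in deficient and 0.41 in control cells, Srsf3, an export adaptor, by 0.39 and 0.41, Srsf4 by 0.26 and 0.28, and Srsf5 by 0.23 and 0.27. Srsf5 was the SRSF gene with the highest level per kilobase of exon in every group except the stimulated ones, in which Srsf2 was higher. It had 404, 421 and 413 CPM in deficient stimulated against 336, 376 and 343 CPM in deficient unstimulated libraries, and 429, 439 and 437 CPM in control stimulated against 369, 369, 364 and 338 CPM in control unstimulated libraries. Even for this smallest change among the SRSF genes, the stimulated and unstimulated libraries did not overlap in either genotype. The ratio of Srsf2 to Srsf5 counts was 1.49 ± 0.0960 in deficient stimulated, 1.49 ± 0.0588 in control stimulated, 0.770 ± 0.0359 in deficient unstimulated and 0.784 ± 0.0267 in control unstimulated libraries (SD).

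Outside the classical set, Srsf10, whose dephosphorylated form represses splicing in heat shock and mitosis, rose by 0.71 in deficient and 0.81 in control cells. Srsf11, an SR-type factor that binds U2AF, rose by 0.46 in deficient and 0.57 in control cells. Srsf12 did not pass the filter on low counts and was not tested. It had 0 counts in each deficient stimulated library and 0, 1 and 1 counts in the control stimulated ones, against 7, 2 and 3 counts in deficient unstimulated and 2, 13, 8 and 5 counts in control unstimulated libraries. In the fit without a filter it was called lower after stimulation (adjusted p = 0.023 in deficient and 0.0425 in control cells), on 42 counts in all.

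**Figure D2:**
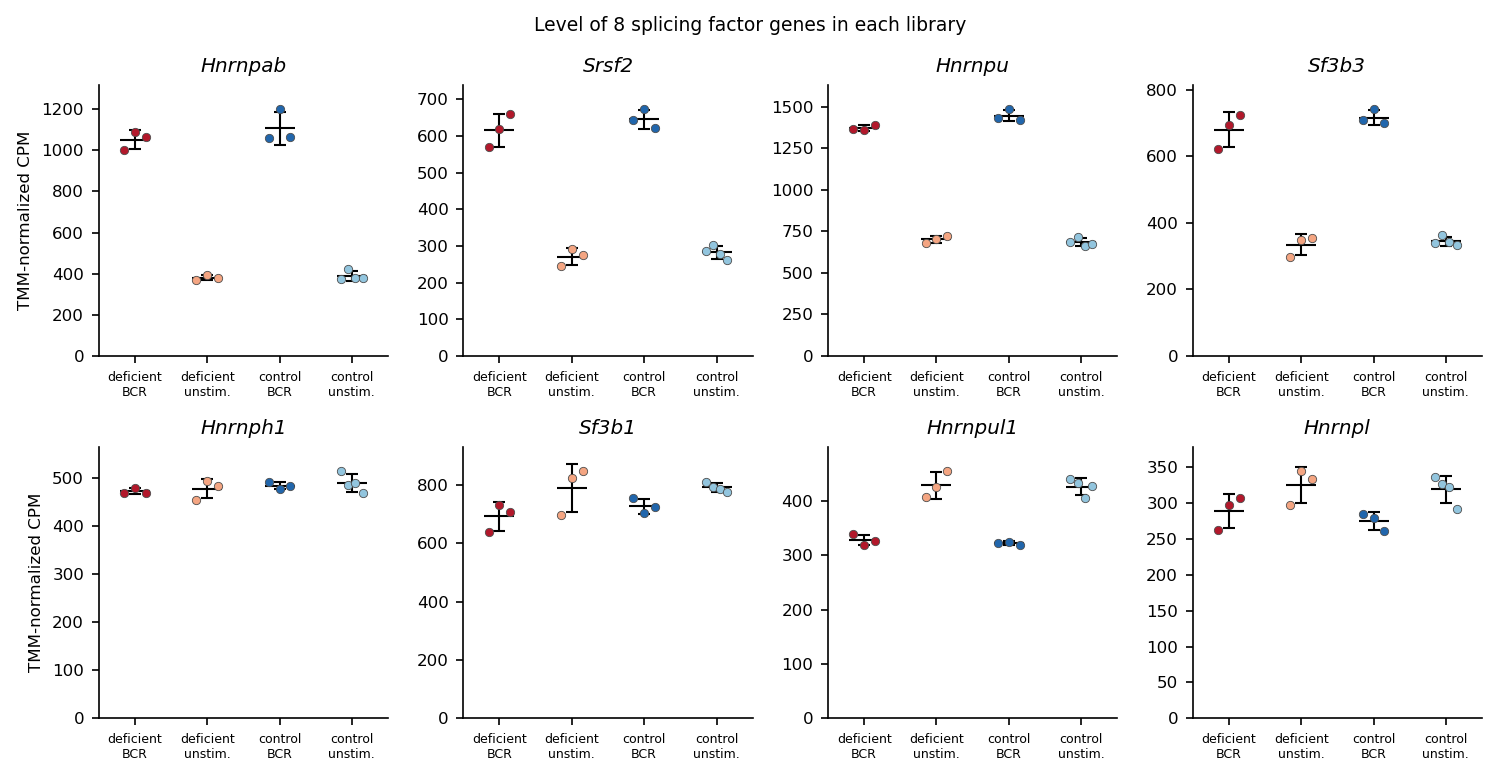
Level of 8 members in each library, in TMM-normalized CPM on axes that start at 0, for the 4 groups. Points are libraries, the horizontal mark is the mean and the bar 1 SD. Hnrnpab, Srsf2, Hnrnpu and Sf3b3 are higher in every stimulated library than in any unstimulated one, Hnrnpul1 is lower, and Hnrnph1 overlaps between states.

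Among the hnRNP genes, the 6 of the A/B type rose in both genotypes, by 0.27 to 1.46 in deficient cells and by 0.45 to 1.51 in control cells on the log2 scale. Hnrnpab, which encodes the CArG box-binding factor A, had the largest change of all members. Its level was 1002, 1088 and 1067 CPM in deficient stimulated against 370, 393 and 381 CPM in deficient unstimulated libraries, and 1058, 1200 and 1064 CPM in control stimulated against 375, 424, 380 and 381 CPM in control unstimulated libraries. The stimulated libraries lay well above all unstimulated ones, a 2.76-fold change in deficient cells (log2 1.46 ± 0.07 SE, adjusted p = 7.3e-11) and a 2.84-fold change in control cells (log2 1.51 ± 0.06 SE, adjusted p = 1.49e-11). In the annotation the exons of Hnrnpab overlap those of Phykpl on the opposite strand over 809 bases. Further opposite-strand overlaps include Hnrnpu with Cox20 (804 bases), Hnrnpr with Gm27022 (715 bases) and Sf3a2 with Plekhj1 (429 bases). Hnrnpm overlaps March2 on the same strand over 1169 bases.

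Hnrnpd, the AU-rich element binding protein AUF1, had 457, 466 and 487 CPM in deficient stimulated against 276, 275 and 279 CPM in deficient unstimulated libraries. In control cells it had 469, 497 and 459 CPM stimulated and 266, 282, 257 and 261 CPM unstimulated. It rose by 0.76 in deficient and 0.83 in control cells without overlap between states. Hnrnpa3 rose by 0.72 in deficient and 0.76 in control cells, and Hnrnpa0, an RNA-binding protein of cytokine mRNAs in macrophages, by 0.55 and 0.53. Hnrnpa2b1, which had the highest level per kilobase of this type before stimulation and sorts RNAs for transport besides its role in splicing, rose by 0.27 in deficient and 0.45 in control cells.

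Hnrnpa1, the classical antagonist of Srsf1 in splice site choice, was counted at 4.87, 4.65 and 5.12 CPM in deficient stimulated against 2.77, 3.01 and 3.04 CPM in deficient unstimulated libraries. In control cells it was at 3.74, 4.93 and 4.50 CPM stimulated and 2.69, 2.50, 2.67 and 2.52 CPM unstimulated. It passed the test in both genotypes (log2 changes 0.73 and 0.76, adjusted p = 0.00211 in deficient and 0.000822 in control cells), but at a level per kilobase that was the lowest of all tested members. Of the 50-base stretches in its annotated transcripts, 28.2% also occur in 20 other genes, and how reads with several matches were counted was not stated. Its true level is therefore uncertain, as are those of Hnrnpf, with 61.9% of such stretches shared, Sf3b4 with 45.3% and Hnrnpa3 with 27.1%. Stretches were compared on either strand. Those of Srsf4 (39.5% shared) and Hnrnpab (23.8%) were shared mostly with Gm12992 and Phykpl, whose exons overlap theirs on the opposite strand. The levels of these 2 genes are uncertain where the counting ignored strand.

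The hnRNP C, M and R genes rose together. Hnrnpr, which is close in sequence to Syncrip, had 217, 232 and 248 CPM in deficient stimulated against 106, 120 and 117 CPM in deficient unstimulated libraries, and 231, 240 and 232 CPM in control stimulated against 118, 109, 101 and 102 CPM in control unstimulated libraries. All stimulated libraries were above all unstimulated ones, with log2 changes of 1.02 ± 0.07 in deficient and 1.12 ± 0.06 in control cells (SE). Hnrnpc, which binds uridine tracts and keeps cryptic exons silent, rose by 0.83 in deficient and 0.91 in control cells, and Hnrnpm by 0.55 and 0.61.

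The F/H genes, whose products bind guanine runs, did not move as a group. Hnrnpf rose by 0.74 in deficient and 0.72 in control cells, and Hnrnph2 by 0.32 and 0.34. Hnrnph1 had 469, 480 and 470 CPM in deficient stimulated against 456, 495 and 484 CPM in deficient unstimulated libraries, and 492, 478 and 485 CPM in control stimulated against 515, 486, 490 and 469 CPM in control unstimulated libraries. These ranges overlapped, and the 95% intervals of its log2 change ran from -0.13 to 0.10 in deficient and from -0.12 to 0.09 in control cells. The count ratio of Hnrnpf to Hnrnph1 was 2.70 ± 0.112 in deficient stimulated, 2.63 ± 0.135 in control stimulated, 1.60 ± 0.00706 in deficient unstimulated and 1.58 ± 0.0668 in control unstimulated libraries (SD). Hnrnph3, counted at 7.30 to 13.2 CPM, was lower by the test in deficient (log2 -0.42, adjusted p = 0.0408) and control cells (log2 -0.43, adjusted p = 0.0247). In deficient cells that call was lost without any 1 of the stimulated libraries 1, 2 and 3 (adjusted p = 0.0694, 0.138 and 0.0684) or unstimulated library 2 (0.0587), and without unstimulated library 1 the log2 change itself was -0.23 (adjusted p = 0.2502). In control cells it was lost without stimulated library 1 or 3 (adjusted p = 0.0947 and 0.0606) or unstimulated library 2 or 3 (0.0680 and 0.0567). DESeq2 gave an adjusted p of 0.0602 in deficient and 0.0600 in control cells.

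Hnrnpk and Hnrnpl moved in opposite directions in control cells. Hnrnpk, which binds cytidine-rich RNA and also acts in transcription, rose by 0.30 in deficient and 0.31 in control cells. Hnrnpl, which binds CA repeats and represses variable exons of Ptprc (CD45), had 262, 298 and 307 CPM in deficient stimulated against 296, 344 and 333 CPM in deficient unstimulated libraries, and 284, 278 and 261 CPM in control stimulated against 336, 327, 322 and 292 CPM in control unstimulated libraries. The deficient libraries overlapped between states and the control libraries did not. It fell by 0.22 in control cells (adjusted p = 0.0147). In deficient cells its log2 change was -0.17 (adjusted p = 0.0689, or 0.00272 in the fit with same-numbered libraries of a genotype as blocks). The control call was lost without stimulated library 3 (adjusted p = 0.0750) and by DESeq2 (0.0887), and the deficient change passed without stimulated library 3 (0.0483) or unstimulated library 1 (0.0169). Hnrpll, a related factor, had a log2 change of -0.71 in deficient and -0.82 in control cells and did not pass the test in either (adjusted p = 0.3705 and 0.274).

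Within the U type the genes went in different directions. Hnrnpu (SAF-A), which binds both chromatin-associated RNA and DNA, had 1367, 1357 and 1388 CPM in deficient stimulated against 678, 706 and 721 CPM in deficient unstimulated libraries, and 1431, 1484 and 1420 CPM in control stimulated against 688, 717, 664 and 677 CPM in control unstimulated libraries. It rose by 0.97 ± 0.05 in deficient and 1.07 ± 0.05 in control cells (SE). Its relative Hnrnpul1, known from adenovirus infection and DNA repair, had 339, 320 and 327 CPM in deficient stimulated against 407, 425 and 454 CPM in deficient unstimulated libraries. In control cells Hnrnpul1 had 323, 325 and 318 CPM stimulated and 441, 432, 406 and 428 CPM unstimulated. Every stimulated library lay below every unstimulated one, and the gene fell by 0.38 in deficient (adjusted p = 2.07e-05) and 0.41 in control cells (adjusted p = 5.42e-06). Hnrnpul2 fell by 0.21 in deficient and by 0.21 in control cells (adjusted p = 0.00437 and 0.00246), also without overlap. The Hnrnpu to Hnrnpul1 count ratio was 4.18 ± 0.124 in deficient stimulated, 4.49 ± 0.0734 in control stimulated, 1.64 ± 0.0448 in deficient unstimulated and 1.61 ± 0.0456 in control unstimulated libraries (SD).

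**Figure D3:**
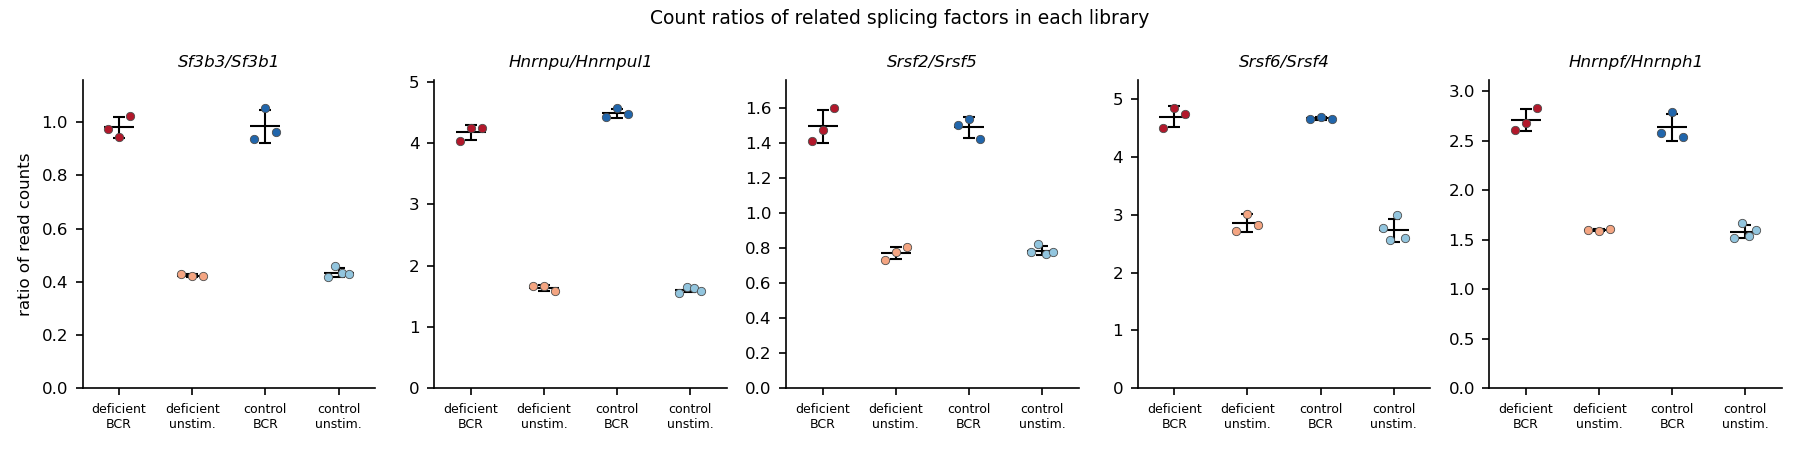
Ratio of raw read counts for 5 pairs of related members in each library. Points are libraries, horizontal marks the means and bars 1 SD, for deficient stimulated, deficient unstimulated, control stimulated and control unstimulated libraries. The pairs were chosen after their changes were seen, and each ratio is higher in all 6 stimulated libraries than in any of the 7 unstimulated ones.

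Genes of the SF3A complex, which bridges SF3B to the rest of the U2 snRNP, all rose. Sf3a2 had 184, 182 and 210 CPM in deficient stimulated against 98.9, 105 and 120 CPM in deficient unstimulated libraries, and 193, 203 and 192 CPM in control stimulated against 117, 125, 119 and 120 CPM in control unstimulated libraries. The states were clearly apart, with log2 changes of 0.83 ± 0.07 in deficient and 0.70 ± 0.07 in control cells (SE). Sf3a3 rose by 0.53 in deficient and 0.52 in control cells, and Sf3a1 by 0.29 and 0.27.

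The 5 SF3B genes that met the symbol rule were split. Sf3b3, the scaffold subunit that cradles Sf3b1, had 622, 693 and 724 CPM in deficient stimulated against 299, 348 and 356 CPM in deficient unstimulated libraries, and 708, 741 and 698 CPM in control stimulated against 338, 363, 342 and 334 CPM in control unstimulated libraries. All stimulated libraries exceeded all unstimulated ones, with log2 changes of 1.02 ± 0.07 in deficient (adjusted p = 7.17e-09) and 1.06 ± 0.07 in control cells (adjusted p = 1.52e-09). The smaller subunits Sf3b5 and Sf3b4 rose by 0.49 and 0.36 in deficient cells and by 0.35 and 0.28 in control cells. Sf3b2 rose by 0.21 in deficient and 0.16 in control cells (adjusted p = 0.0056 and 0.0206). In control cells that call was lost without any 1 of 4 libraries, at an adjusted p of 0.0634 and 0.0695 without stimulated library 1 or 2 and of 0.0606 and 0.0544 without unstimulated library 3 or 4.

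Sf3b1, the branch-point-binding subunit that is recurrently mutated in chronic lymphocytic leukaemia, did not follow the others. It had 638, 733 and 707 CPM in deficient stimulated against 697, 826 and 847 CPM in deficient unstimulated libraries, and 755, 704 and 726 CPM in control stimulated against 812, 793, 788 and 776 CPM in control unstimulated libraries. The deficient libraries overlapped between states and the control libraries did not. By the test it fell by 0.19 in deficient cells (adjusted p = 0.038). In control cells its log2 change was -0.12 (adjusted p = 0.143, or 0.0136 with same-numbered libraries of a genotype as blocks). The deficient call was lost without stimulated library 1 or 3 or unstimulated library 2 or 3 (adjusted p = 0.193, 0.0630, 0.135 and 0.159) and by DESeq2 (0.0735). The Sf3b3 to Sf3b1 count ratio was 0.981 ± 0.0402 in deficient stimulated, 0.984 ± 0.0610 in control stimulated, 0.423 ± 0.00468 in deficient unstimulated and 0.435 ± 0.0172 in control unstimulated libraries (SD).

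Levels per kilobase of annotated exon allowed a comparison between genes. Before stimulation Hnrnpf (267 ± 10.9 and 270 ± 9.65 CPM per kilobase in deficient and control cells) and Hnrnpa2b1 (296 ± 9.80 and 275 ± 4.87) led, followed by Srsf5, Hnrnph1 and Hnrnpk. After stimulation Hnrnpf stood at 447 ± 18.2 in deficient and 446 ± 18.53 in control cells. Next were Hnrnpab, at 378 ± 16.3 and 398 ± 28.8 CPM per kilobase, and Hnrnpa2b1, at 358 ± 14.2 and 375 ± 7.52. Hnrnpab and Hnrnpa2b1 lay within the sum of their SDs in both genotypes. The levels of Hnrnpf and Hnrnpab are uncertain for the shared stretches and overlaps given above. At the low end of unstimulated control cells were Hnrnpr (5.02 ± 0.362), Hnrnph3 (4.56 ± 0.632) and Hnrnpa1 (1.35 ± 0.0531 CPM per kilobase). The low value of Hnrnpr comes with an annotated exon length of 21483 bases. Ordered by level in unstimulated control cells, 20 of the 35 neighbouring pairs of members lay within the sum of their SDs, Hnrnpa2b1 and Hnrnpf among them, and 15 lay farther apart.

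Between deficient and control cells no member differed past the threshold in either state. In stimulated cells 0 of 36 members were called, against 2.01% of all genes tested in either direction, 0.751% higher and 1.26% lower, and the smallest adjusted p was 0.639. No member had an unadjusted p under 0.05, and DESeq2 called 0 as well, with 2 members at an unadjusted p under 0.05. Log2 differences of deficient from control cells ran from -0.08 to 0.15, with 10 of the 36 members above 0. Their median was -0.038, against 0.003 over all genes. Without both libraries of deficient number 1 the member median was 0.0006. The 95% intervals of 35 members lay within 0.5 of 0 on either side and those of 32 within 0.25, and Hnrnpa1, the least counted, had the widest range upward, to 0.52.

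By the smallest p, the stimulated members nearest to a difference were Hnrnpu (1367, 1357 and 1388 CPM in deficient against 1431, 1484 and 1420 CPM in control cells), Srsf10 (324, 337 and 332 CPM against 357, 344 and 346 CPM), Srsf11, Srsf5, Hnrnpa2b1 and Hnrnpa3. Hnrnpu had a log2 difference of -0.08 (95% interval -0.19 to 0.03) and Srsf10 of -0.08 (-0.19 to 0.04). Srsf11 and Srsf5 were likewise at -0.08, Hnrnpa2b1 was at -0.07 and Hnrnpa3 at 0.10. The deficient and control libraries did not overlap for 4 members, Hnrnpu, Srsf10, Srsf5 and Srsf4, all lower in deficient cells. As a share of the 36 members this is below the 17.8% of all genes that did not overlap.

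**Figure D4:**
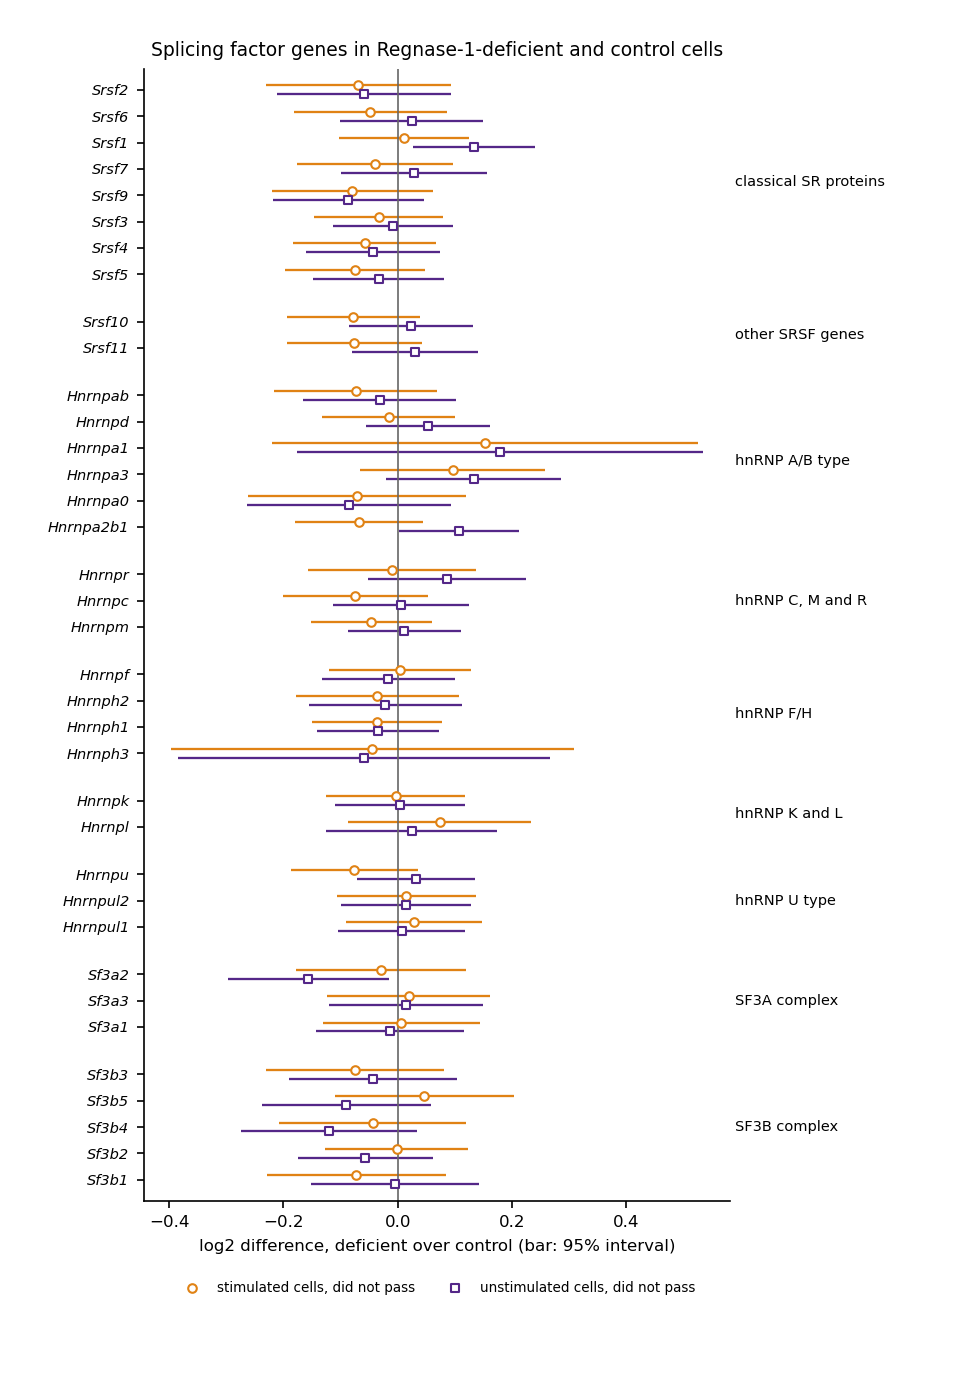
Log2 difference of deficient from control cells for the 36 members tested, with 95% intervals as bars, in stimulated cells (circles) and unstimulated cells (squares). Open symbols did not pass the test, and every symbol is open, with all differences between -0.16 and 0.18.

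In unstimulated cells likewise 0 of 36 members were called, against 0.324% of all genes in either direction, 0.125% higher and 0.199% lower, with a smallest adjusted p of 0.446. At an unadjusted p under 0.05 there were 3, by edgeR, and DESeq2 called 0 with 2 under that value. Srsf1 had 316, 329 and 323 CPM in deficient against 307, 290, 287 and 292 CPM in control libraries, with no overlap (log2 difference 0.13, 95% interval 0.03 to 0.24). Sf3a2 had 98.9, 105 and 120 CPM in deficient against 117, 125, 119 and 120 CPM in control libraries, with overlap (log2 difference -0.16, 95% interval -0.30 to -0.02). Hnrnpa2b1 had 748, 713 and 703 CPM in deficient against 674, 681, 653 and 670 CPM in control libraries, again with no overlap (log2 difference 0.11, 95% interval 0.00 to 0.21). Next in order were Hnrnpa3 at 0.13, Sf3b4 at -0.12 and Srsf9 at -0.09. Groups did not overlap for 3 members, Srsf1, Hnrnpa2b1 and Hnrnpa1, against 8.72% of all genes. Log2 differences of all members lay between -0.16 and 0.18, and 35 intervals were within 0.5 and 30 within 0.25 of 0.

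The response to stimulation was also compared between genotypes as a difference of the log2 changes. By edgeR 0 of 36 members were called, against 0.00737% of all genes, with 1 member, Hnrnpa2b1, at an unadjusted p under 0.05. The change of Hnrnpa2b1 was 0.18 smaller on the log2 scale in deficient cells (difference -0.18, 95% interval -0.33 to -0.02, adjusted p = 0.9997 by edgeR and 0.0434 by DESeq2). For Srsf1 the difference was -0.12, for Hnrnpu -0.11, for Srsf11 -0.11, for Srsf10 -0.10 and for Sf3b5 0.14. Intervals of 35 members lay within 0.5 of 0, and those of 18 within 0.25. Across the 36 members the log2 changes of deficient and control cells, which share no library, had a Pearson r of 0.991, given as a description of genes that are not independent of one another.

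Other genes of the splicing pathway were counted in 7 lists, as shown in the plot of lists. Beside them, 28.3% of all genes were higher and 29.6% lower in deficient cells after stimulation, and 28.5% higher and 31.8% lower in control cells. The median log2 change over all genes was -0.11 in deficient and -0.13 in control cells. Of 18 Sm and U snRNP protein genes 15 were higher and 1 lower in each genotype after stimulation, with a median log2 change of 0.63 in deficient and 0.66 in control cells. Snrpd1, a core Sm protein, rose by 1.19 and 1.47, Snrpa, of the U1 snRNP, by 1.27 and 1.33, and Snrpa1, of the U2 snRNP, by 1.27 and 1.32, each in deficient and control cells. Of 11 genes for recognition of the 3′ splice site and branch point, 7 were higher and 0 lower in each genotype. Rbm17 rose by 1.20 in deficient and 1.41 in control cells, and the U2AF subunit genes U2af1 and U2af2 by 0.94 and 0.69 in deficient and 0.86 and 0.74 in control cells. Among 27 genes of PRP and catalytic factors 21 were higher and 1 lower in each genotype, including the U5 GTPase gene Eftud2 at 1.07 in deficient and 1.08 in control cells, the ubiquitin ligase gene Prpf19 at 1.07 and 1.03 and the helicase gene Dhx15 at 0.83 and 0.89.

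**Figure D5:**
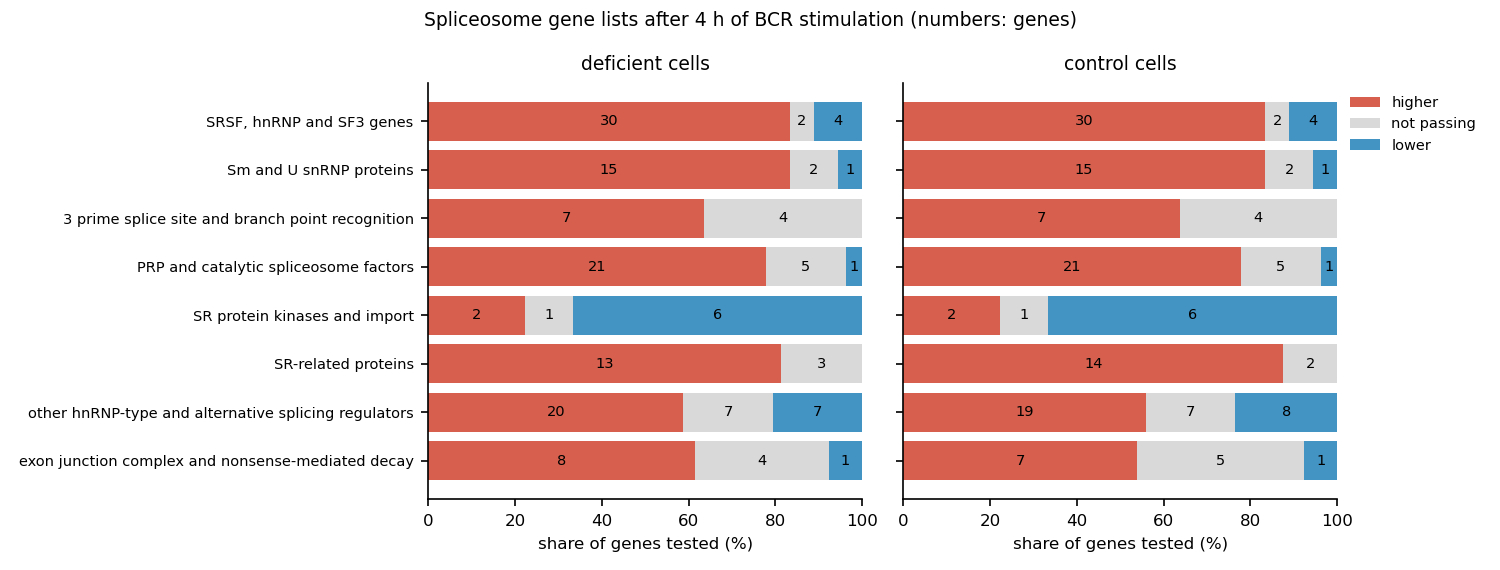
Share of tested genes that were higher (red), did not pass (grey) or were lower (blue) after 4 h of BCR stimulation, for the members and 7 other lists, in deficient cells (left) and control cells (right). Numbers in the bars are genes. In the list of SR protein kinases and import 6 of 9 genes are lower, whereas in every other list shown more genes are higher than lower.

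SR proteins are phosphorylated in their arginine-serine domains by CLK and SRPK kinases and carried into the nucleus by transportin 3. In this list 2 of 9 genes were higher and 6 lower in each genotype. Over all genes 28.3% were higher and 29.6% lower in deficient cells, and 28.5% higher and 31.8% lower in control cells. The median log2 change of the list was -0.38 in deficient and -0.31 in control cells, against -0.11 and -0.13 over all genes. Clk1 had 202 ± 16.04 CPM in deficient stimulated against 372 ± 8.20 CPM in deficient unstimulated libraries (SD, n = 3 each), and 213 ± 25.7 CPM in control stimulated (n = 3) against 369 ± 14.9 CPM in control unstimulated libraries (n = 4). It fell by 0.88 in deficient and 0.79 in control cells (adjusted p = 9.47e-08 and 1.4e-07). Srpk1, a cytoplasmic SR kinase, rose by 0.70 in deficient and 0.61 in control cells, and Tnpo3, the importer, by 0.62 and 0.61. Lower besides Clk1 were Clk3, Clk4, Srpk2, Srpk3 and Dyrk1a, and Clk2 did not pass the test, with log2 changes of 0.02 and 0.06.

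Of 16 SR-related genes 13 were higher in deficient and 14 in control cells, with 0 lower. For the lists in this paragraph, the shares over all genes were 28.3% higher and 29.6% lower in deficient cells. In control cells they were 28.5% higher and 31.8% lower. Tra2b and Tra2a, the transformer-2 homologs, rose by 0.92 and 0.73 in deficient and by 0.94 and 0.88 in control cells, and Rbm25 by 0.65 and 0.72. The other hnRNP-type and alternative splicing regulators, 34 tested of 36 listed, were mixed, with 20 higher and 7 lower in deficient and 19 higher and 8 lower in control cells. Syncrip (hnRNP Q) rose by 1.54 in deficient and 1.67 in control cells, Fubp1 by 1.47 and 1.53, Tardbp (TDP-43) by 0.93 and 1.06, and Hnrpdl by 0.52 and 0.55. Of 13 exon junction complex and nonsense-mediated decay genes tested of 15 listed 8 were higher and 1 lower in deficient cells and 7 higher and 1 lower in control cells. Magohb rose by 1.58 in deficient and 1.496 in control cells, and Rbm8a by 0.79 and 0.85.

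Between genotypes, 2 genes of these 7 lists were called, and they were named after their values were seen. In stimulated cells they were 1 of 18 Sm and U snRNP genes and 1 of 34 other regulators tested. Of all genes 2.01% were called there. In unstimulated cells 1 of the 18 was called, against 0.324% of all genes. The other lists, of 9 to 27 tested genes, had 0 calls. A share over the 7 lists together was not computed. Snrnp25, a protein of the minor spliceosome, had 10.9 ± 1.08 CPM in deficient and 15.6 ± 0.107 CPM in control stimulated libraries (log2 difference -0.51, adjusted p = 0.0211), and 35.0 ± 3.11 CPM in deficient and 56.95 ± 6.92 CPM in control unstimulated libraries (log2 difference -0.70, adjusted p = 0.00423). It was also the gene of its list that was lower after stimulation, with a log2 change of -1.68 in deficient and -1.87 in control cells. Fubp1 was lower in deficient stimulated cells, at 356 ± 11.4 CPM against 414 ± 7.48 CPM in control stimulated cells (log2 difference -0.22, adjusted p = 0.0352), and had a log2 difference of -0.16 in unstimulated cells (adjusted p = 0.292).

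Of 10 genes listed as BCR response genes, 9 were higher and 0 lower in each genotype. Over all genes 28.3% were higher and 29.6% lower in deficient cells, and 28.5% higher and 31.8% lower in control cells. The list was chosen with earlier results known, and the culture time of untreated cells is not given. Its changes thus cannot tell the stimulus from culture. Myc rose by 3.30 in deficient and 3.36 in control cells, Cd69 by 3.03 and 2.65, and Cd83 by 1.70 and 1.82. Of 15 cell cycle genes 2 were higher and 1 lower in each genotype. Pcna rose by 0.77 in deficient and 0.74 in control cells and Mcm3 by 0.25 and 0.33, while Aurkb fell by 0.96 and 1.08. The BCR response list also held the gene Ccnd2, with 827 ± 55.4 CPM in deficient and 1333 ± 166 CPM in control stimulated cells (log2 difference -0.69, adjusted p = 0.0349).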

How the data were processed

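The data were 13 RNA-seq libraries of splenic B cells from mice. For each library the authors deposited whole-number counts by gene symbol, and per the submitters' processing notes TopHat, HTSeq and the mm10 build were used, with no version given. A second deposited table holds log2 values, for which those notes name DESeq2. Annotation, strand setting, multi-mapping rule and the log2 transformation are not given in the sources used here. The count tables held 23337 symbols, of which 1 with a missing cell was left out.

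Counts were tested over the whole table with edgeR 4.0.16 in R 4.3.3 (filterByExpr by group with minimum count 10, TMM factors, robust quasi-likelihood fit, 1 coefficient for each of the 4 groups over all 13 libraries). The filter kept 13574 genes, the fit had 9 residual degrees of freedom, and the common coefficient of biological variation came to 0.175. A call means a p under 0.05 after Benjamini-Hochberg adjustment over all these genes. Intervals are 95% intervals of the fit, and floors of 3 counts cover counting error only. The fit recovered changed genes in counts simulated from its own means and spread. That checks the code only, as simulated libraries were independent and no small changes were planted.

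Members and lists were chosen with earlier results of these data known. The genes named in each stimulation comparison were the 8 called members without overlap that rose most and the 8 that fell most, in each genotype comparison every called member or the 6 with the smallest p, in the difference of responses the 6 with the smallest p, of each role the gene highest per kilobase, and of each list the 3 genes with the smallest p in control stimulation, of which 1 is not reported here. All other members are given by their changes, and the ratio pairs were chosen after seeing the changes.

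Replicates were compared before averaging, and with a chi-square per gene of 8.27 to 36.6 no pair agreed within sampling noise. Same-numbered libraries of a genotype deviated together in both states (r of 0.558 to 0.803 over 8656 genes), so the numbers pair the states within a genotype. This pairing comes from the data and the shared number in the titles. Between genotypes r was -0.563 to -0.0603 and the numbers pair nothing.

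Exon lengths, overlaps and shared 50-base stretches came from GENCODE vM21, which matched all 37 members, and promoter windows from RefSeq, GRCm38.p6. Alternatives were DESeq2 1.42.0 and its size factors in edgeR, upper-quartile factors, no filter, and a stricter filter that asks for 1 CPM in 3 libraries. Others were a fit of the compared groups alone, a replicate block, sex as a term and limma 3.58.1 on the deposited log2 values. Each library was also left out in turn, as were both libraries of deficient number 1. In the stimulation comparisons and their difference the replicate block was genotype and number together, with 4 residual degrees of freedom. Between genotypes it was the number alone, with 6, although the numbers pair nothing there.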

Additional observations from a re-analysis of the deposited data

Results flagged for a closer look

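In a group of 4 libraries a value far from the other 3 could be tested with Dixon's ratio, which only control unstimulated cells allow. Of 36 members 2 exceeded the critical value at the 95% level, where chance gives about 1 in 20. Hnrnpab stood at 424.1 CPM in control unstimulated library 2, above the 375 to 381 CPM of the other 3 libraries. Srsf6 stood at 256.9 CPM in control unstimulated library 4, below the 275 to 279 CPM of the others. Both values were far from the stimulated control libraries, at 1058 CPM or more for Hnrnpab and 559 CPM or more for Srsf6.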

How the results depend on the processing

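Members called higher after stimulation numbered 30 in deficient cells under every alternative, and 29 or 30 in control cells, with Sf3b2 the one lost. The number called lower, 4 in each genotype, varied. In deficient cells it was 2 with DESeq2's size factors in edgeR, with DESeq2, with only the groups compared and with limma on the deposited log2 values, 6 with upper-quartile factors, 5 with the stricter filter and with sex as a term, and 2 to 4 when each library was left out in turn. In control cells it was 2 with DESeq2's size factors in edgeR, with DESeq2 and with limma, 5 with upper-quartile factors and with sex as a term, and 2 to 4 when each library was left out. Hnrnpul1 and Hnrnpul2 were the pair that remained, and the cause was not tested. With same-numbered libraries of a genotype as replicate blocks 30 members were higher and 5 lower in each genotype. This added Hnrnpl in deficient and Sf3b1 in control cells, and the pairing changed no other member's call. For the difference of responses DESeq2 called 1 member lower, Hnrnpa2b1. Between genotypes 0 members were called under every alternative.

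Over all genes, counts depended more on the setting. Deficient against control stimulated cells gave 273 calls, 532 by DESeq2, 511 with sex as a term, 177 without deficient stimulated library 2 and 129 without control stimulated library 1. In unstimulated cells there were 44, with 163 by DESeq2, 198 with sex as a term, 70 with upper-quartile factors, 74 without both libraries of deficient number 1 and 17 to 46 when each library was left out. The difference of responses had 1 call, 48 by DESeq2, 68 with the replicate block, 19 with sex as a term, 12 with upper-quartile factors, 13 without both libraries of deficient number 1, 10 without a filter and 1 to 10 when each library was left out. Low counts limit Srsf12, Hnrnpa1 and Hnrnph3, the least counted members. For Hnrnpa1 the part that reads shared with other genes have in its low counts was not tested.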
